A study of Rattus norvegicus with 12 samples.

Results

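Striated muscle assembles its contractile apparatus from slow or fast versions of the same proteins, and the genes of 10 such versions were followed here in muscle of newborn rats. The slow genes were Tnni1, Tnnt1, Tnnc1, Myl2 and Myl3, and the fast genes were Tnni2, Tnnt3, Tnnc2, Mylpf and Myl1. A gene was taken as measured where the platform annotation gave its symbol to a detected probe set, and the probe set with the highest mean over all arrays stood for it. This gave 9 of the 10 genes, with 1 probe set each, out of 18957 detected probe sets. Mylpf, the fast regulatory light chain, is not analysed here, which left 5 slow and 4 fast genes and no fast partner for Myl2.

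The muscle was taken from the hind legs of male Wistar newborns, and 3 newborns of 1 dam were pooled on each array, so that the dam was the replicate. Dams of the control group ate a control diet, dams of the low protein group a diet low in protein, and dams of the third group that low protein diet with taurine, a sulphur-containing amino acid derivative, at 2% w/v in the drinking water. All diets began on day 1 of gestation, and each of the 3 groups had 4 arrays. Among these 12 arrays no group combined taurine with the control diet, and the protein content of the diets is not given in the sources used here. Values are log2 expression after RMA, a procedure that corrects background, normalises arrays and summarises probes, so a difference between groups is a log2 fold change. Precision is limited by the number of arrays, 4 per group.

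The arrays differed in markers of other tissues. All 7 measured skeletal muscle markers lay above the array's median on every array, and their mean was 11.67 to 11.91 in controls, 11.91 to 11.97 on the low protein diet, and 11.93 to 12.00 when taurine was added. The mean of 12 hepatocyte markers was 6.88 and 7.16 in controls 1 and 2, 10.90 and 11.79 in controls 3 and 4, and between 6.91 and 8.33 in the other 8 arrays. Controls 3 and 4 therefore stood apart, and values that change without them by over 1.5 times, in sign or in call are given both ways for most genes described. No values without them are given for Atp2a1, Tnnt2, Tnni3, the second Myl12b probe set and single tissue markers. The mean of 6 adipocyte markers was highest in low protein array 1, at 9.85, and lay between 7.48 and 8.99 elsewhere. In pooled tissue, fewer cells of a type and less RNA per cell cannot be told apart.

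Troponin sits on the thin filament and holds contraction off until calcium arrives. Troponin C binds the calcium, troponin I inhibits the contact of actin with myosin, and troponin T anchors the complex to tropomyosin. Myosin light chains wrap the neck of the myosin heavy chain, an essential and a regulatory chain on each head. Slow and fast muscle use different genes for each of these subunits, and in mammals the slow troponin C and the slow light chains are also those of the heart ventricle. Around birth, rodent hind leg muscle is still sorting its fibres into slow and fast types, and the balance of these genes is commonly used to describe fibre type.

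Start regions in the rat genome are shown for the troponin I and the essential light chain genes, the 2 slow and fast pairs with a RefSeq window for both partners. Each is the 250 bases before a transcription start in build GRCr8, read 5′ to 3′ on the gene's strand. Capitals mark E-boxes (CANNTG, the core bound by myogenic factors), the MEF2 motif and the CArG box.
Tnni1, chr13:49781279-49781528, plus strand: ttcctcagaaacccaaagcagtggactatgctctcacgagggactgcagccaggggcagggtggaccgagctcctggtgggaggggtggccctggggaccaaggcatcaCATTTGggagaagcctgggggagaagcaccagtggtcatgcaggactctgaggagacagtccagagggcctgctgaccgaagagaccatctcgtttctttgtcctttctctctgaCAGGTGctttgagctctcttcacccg
Tnni2, chr1:207024240-207024489, plus strand: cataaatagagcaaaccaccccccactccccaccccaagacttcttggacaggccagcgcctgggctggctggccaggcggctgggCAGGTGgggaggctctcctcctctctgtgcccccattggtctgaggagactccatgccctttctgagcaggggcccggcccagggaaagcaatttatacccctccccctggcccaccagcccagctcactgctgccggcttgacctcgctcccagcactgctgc
Myl3, chr8:119616844-119617093, plus strand: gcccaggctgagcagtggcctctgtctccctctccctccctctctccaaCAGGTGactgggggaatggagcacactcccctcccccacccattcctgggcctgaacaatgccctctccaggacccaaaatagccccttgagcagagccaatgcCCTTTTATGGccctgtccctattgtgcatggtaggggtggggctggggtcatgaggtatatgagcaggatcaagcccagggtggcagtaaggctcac
Myl1, first start, chr9:75907697-75907946, minus strand: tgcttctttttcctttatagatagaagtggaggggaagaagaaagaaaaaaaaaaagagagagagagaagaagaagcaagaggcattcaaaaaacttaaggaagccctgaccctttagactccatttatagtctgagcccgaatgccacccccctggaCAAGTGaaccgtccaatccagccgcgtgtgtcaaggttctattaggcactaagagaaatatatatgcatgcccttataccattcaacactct
Myl1, second start, chr9:75897800-75898049, minus strand: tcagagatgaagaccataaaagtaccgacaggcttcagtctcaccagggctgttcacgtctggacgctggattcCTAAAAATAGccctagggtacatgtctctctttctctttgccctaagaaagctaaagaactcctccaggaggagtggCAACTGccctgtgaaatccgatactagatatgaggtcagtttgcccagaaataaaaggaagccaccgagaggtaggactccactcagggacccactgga
Myl1 has a pair of windows because its alternative first exons give a long and a short fast essential light chain.

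Windows were found for 6 of the 10 genes, 7 windows in all, since Tnnt1 and Tnnc2 had 1 each as well. An E-box on either strand was present in all 7, against 65.5% of 33469 rat windows of this length. The CACCC box (CCACCC, both strands) was present in 6 of the 7, against 26.1% of windows, and was missing only from the second Myl1 window. The MEF2 motif was present only in the second Myl1 window (2.96% of all windows) and the CArG box only in that of Myl3 (1.5%), each searched on both strands. The M-CAT motif (GGAATG, both strands) was present only for Myl3 (12.1% of windows), and TATAAA on the gene's strand only for Tnnt1 (8.06%). Of the 26 matches 1 pair overlapped. A match describes these letters and is no site of binding. In the same assembly, troponin I and T genes lie near each other, counting protein-coding genes only. Tnni2 and Tnnt3 lie on chromosome 1 with 5 such genes between. Tnni1 and the cardiac troponin T gene Tnnt2 lie on chromosome 13 with 1 between, and the cardiac troponin I gene Tnni3 is next to Tnnt1 on chromosome 1.

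Neither low protein nor low protein with taurine changed any of the slow or fast genes past the threshold. With low protein, 0 of the 9 measured genes passed in limma at a Benjamini-Hochberg adjusted p of 0.05 over all probe sets, where 21.8% of all probe sets were called higher and 11.9% lower. With low protein plus taurine against control 0 of 9 passed, beside 10.2% higher and 3.6% lower among all probe sets. This comparison, called added taurine below, differs from control in the low protein diet as well as in taurine. Between low protein plus taurine and low protein 0 of 9 passed, beside 0% higher and 0% lower. The share of calls that were higher was 64.6% with low protein and 73.9% with added taurine as deposited, 51.1% and 46.1% after quantile normalisation, 29.4% and 32.9% after median centring, and 36.9% and 29.3% after cyclic loess, which removes differences between arrays that depend on the level. At an unadjusted p under 0.05 limma counted 1, 2 and 0 of the 9 genes in these comparisons, beside 9021, 6694 and 2047 of the 18957 probe sets. The methods' t-test counted 1, 1 and 1, and its unadjusted count over all probe sets was not taken. After either of its adjustments 0 of the 9 passed. Of all probe sets 6, 3 and 0 passed with Bonferroni and 4079, 491 and 0 with Benjamini-Hochberg.

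The 95% intervals show how large an undetected change could be. For low protein against control, the intervals of the 9 genes together ran from 0.836-fold to 1.40-fold. Against control with added taurine they ran from 0.893-fold to 1.51-fold, and between the low protein groups from 0.837-fold to 1.39-fold. The upper ends belong to Tnnc1 in the first case and to Myl2 in the others. Both comparisons with control use the same 4 control arrays.

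**Figure D1:**
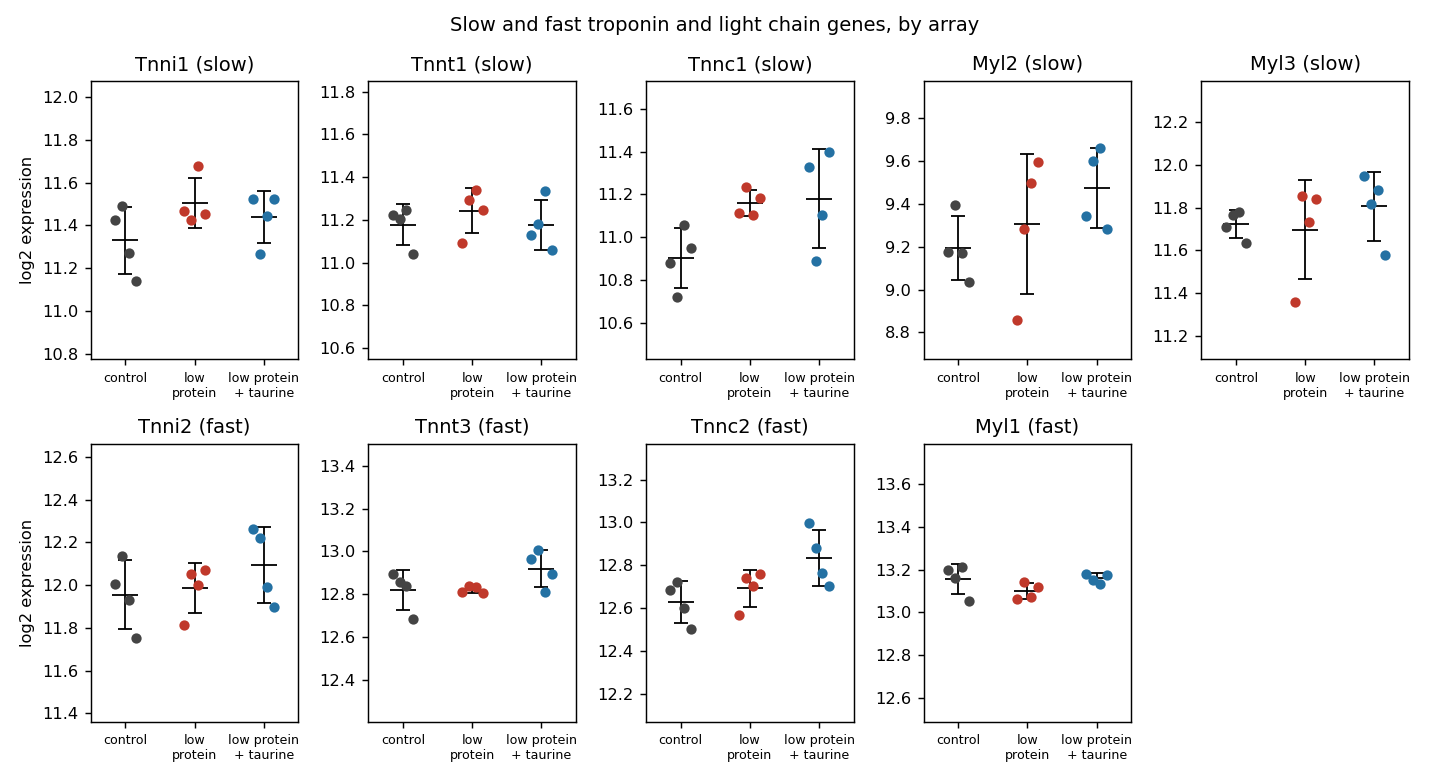
Log2 expression of the 9 measured genes on the 12 arrays, by diet (points, 1 array each; horizontal mark, mean; bars, SD of 4 arrays). Every panel spans the same range of log2 values, and among its panels only that of Tnnc1 has low protein arrays that all lie above the controls.

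Tnni1, the slow troponin I, read 11.42, 11.49, 11.27 and 11.14 in controls 1 to 4. It read 11.47, 11.43, 11.68 and 11.45 with low protein and 11.52, 11.27, 11.44 and 11.52 with added taurine. Low protein array 3 and taurine arrays 1 and 4 were above all controls, and the groups overlapped. The log2 difference was 0.17 (SE 0.09, 95% interval -0.02 to 0.37, limma adjusted p = 0.134) with low protein and 0.11 (adjusted p = 0.385) with added taurine. With controls 3 and 4 left out, these were 0.05 (adjusted p = 0.718) and -0.02 (adjusted p = 0.919).

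Tnni2, the fast troponin I, read 12.00, 12.14, 11.93 and 11.75 in the controls. It read 11.82, 12.05, 12.00 and 12.07 with low protein, and 12.26, 12.22, 11.99 and 11.90 with added taurine. Taurine arrays 1 and 2 were above every control, and arrays 3 and 4 were within the control range. The log2 difference from control was 0.03 (95% interval -0.19 to 0.25, limma adjusted p = 0.834) with low protein and 0.14 (-0.08 to 0.35, adjusted p = 0.333) with added taurine. The differences without controls 3 and 4 were -0.09 (adjusted p = 0.593) and 0.02 (adjusted p = 0.911).

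Tnnt1, the slow troponin T, had control values of 11.22, 11.20, 11.25 and 11.04. Its low protein values were 11.09, 11.29, 11.34 and 11.25, and those with added taurine 11.13, 11.18, 11.34 and 11.06. Low protein arrays 2, 3 and 4 were above all controls, the last of them only marginally, and taurine array 3 was as well. The log2 difference from control was 0.07 (SE 0.07, limma adjusted p = 0.5) with low protein and -0.001 (SE 0.07, adjusted p = 0.993) with added taurine. With controls 3 and 4 left out, these were 0.03 (adjusted p = 0.819) and -0.04 (adjusted p = 0.817).

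Tnnt3, the fast troponin T, read 12.89, 12.86, 12.84 and 12.68 in the controls and 12.81, 12.84, 12.83 and 12.80 with low protein. With added taurine it read 12.96, 13.00, 12.81 and 12.90. The low protein arrays sat inside the control range, and 3 of the 4 taurine arrays lay above it. The log2 difference was 0.003 (95% interval -0.12 to 0.13, limma adjusted p = 0.972) with low protein and 0.10 (-0.03 to 0.23, adjusted p = 0.23) with added taurine. The differences without controls 3 and 4 were -0.05 (adjusted p = 0.565) and 0.04 (adjusted p = 0.692).

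Tnnc1, the calcium sensor of slow and cardiac fibres, came nearest to the threshold with low protein. The controls read 10.88, 10.72, 11.06 and 10.95, the low protein arrays 11.11, 11.23, 11.10 and 11.18, and the taurine arrays 11.33, 10.89, 11.11 and 11.40. All 4 low protein arrays lay above all 4 controls. It was the 1 gene of the 9 whose groups did not overlap in that comparison, where 32.8% of all probe sets did not overlap. In the taurine group, array 2 lay inside the control range and the other arrays above it.

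The mean of Tnnc1 was 10.90 ± 0.14 (SD, n = 4) in the controls, 11.16 ± 0.06 with low protein and 11.18 ± 0.23 with added taurine. The log2 difference with low protein was 0.26 (SE 0.10, 95% interval 0.03 to 0.48), 1.20-fold, with an adjusted p of 0.0687 in limma. With added taurine it was 0.28 (SE 0.10, 95% interval 0.06 to 0.50, limma adjusted p = 0.0809). Without controls 3 and 4 the differences were 0.36 (adjusted p = 0.0597) and 0.38 (adjusted p = 0.0913). Without taurine array 2, whose spread enters the shared fit, the adjusted p with low protein was 0.0314 and the difference stayed at 0.26. With added taurine the difference itself rose to 0.38 without that array (adjusted p = 0.0245). With only the control and low protein arrays in the fit the adjusted p was 0.0311. Over all 23 alternatives it ran from 0.0311 to 0.25 with low protein and from 0.0245 to 0.253 with added taurine.

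Tnnc2, the fast troponin C, was nearest to the threshold with added taurine. The controls read 12.69, 12.72, 12.60 and 12.50, and the low protein arrays 12.57, 12.74, 12.70 and 12.76. The taurine arrays read 13.00, 12.88, 12.76 and 12.70, with array 4 inside the control range and the other arrays above it. No gene of the 9 was free of overlap in the comparison of added taurine with control, where 20.2% of all probe sets were, and none between the low protein groups, where 6.87% were.

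The log2 difference of Tnnc2 with added taurine was 0.21 (SE 0.07, 95% interval 0.05 to 0.37, limma adjusted p = 0.0739), or 1.16-fold. With low protein alone it was 0.07 (adjusted p = 0.501), and -0.01 (adjusted p = 0.935) without controls 3 and 4. Under limma's trend and robust options the adjusted p with added taurine was 0.0489, and without controls 3 and 4 the difference was 0.13 (adjusted p = 0.361), the range of its alternatives.

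Myl2, the slow regulatory light chain, had the widest spread between arrays. Controls 1 to 4 read 9.17, 9.39, 9.17 and 9.03, and low protein arrays 8.86, 9.28, 9.50 and 9.59. With added taurine the arrays read 9.35, 9.60, 9.66 and 9.28. Low protein array 1 was the lowest of all 12 arrays and array 4 of that group among the highest. The within-group SD was 0.15 in the controls, 0.33 with low protein and 0.19 with added taurine. The log2 difference from control was 0.11 (SE 0.15, limma adjusted p = 0.547) with low protein and 0.28 (95% interval -0.03 to 0.59, adjusted p = 0.183) with added taurine. The low protein value was 0.02 (adjusted p = 0.932) and the taurine value 0.19 (adjusted p = 0.525) without controls 3 and 4.

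Myl3, the slow essential light chain, read 11.71, 11.77, 11.78 and 11.63 in the controls. The low protein arrays read 11.36, 11.86, 11.73 and 11.84, and the taurine arrays 11.95, 11.82, 11.88 and 11.58. Low protein array 1 was again far below the other arrays, and taurine array 4 was below all controls while the other 3 were above them. The log2 difference from control was -0.03 (95% interval -0.26 to 0.21, limma adjusted p = 0.861) with low protein and 0.08 (adjusted p = 0.592) with added taurine. Without low protein array 1 the former was 0.09, and without controls 3 and 4 it was -0.04 (adjusted p = 0.84).

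Myl1, the fast essential light chain, had the narrowest range over the 12 arrays. It read 13.20, 13.16, 13.21 and 13.05 in the controls, 13.06, 13.14, 13.07 and 13.12 with low protein, and 13.18, 13.15, 13.13 and 13.18 with added taurine. All 8 arrays of the low protein groups lay within the control range. The log2 difference was -0.06 (95% interval -0.16 to 0.05, limma adjusted p = 0.366) with low protein and 0.005 (-0.10 to 0.11, adjusted p = 0.952) with added taurine. When each array was centred on its median, which shifted the median difference of all probe sets from 0.07 to -0.01, the low protein value was -0.14 with an adjusted p of 0.0485. Without controls 3 and 4 the values were -0.08 (adjusted p = 0.308) and -0.02 (adjusted p = 0.849). Over its alternatives the adjusted p ran from 0.0485 to 0.804.

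Between low protein plus taurine and low protein, the 9 genes differed by -0.07 (Tnnt1) to 0.17 (Myl2) on the log2 scale. All 4 fast genes had positive values, 0.11 for Tnni2, 0.10 for Tnnt3, 0.14 for Tnnc2 and 0.06 for Myl1. Of the 5 slow genes Tnni1 and Tnnt1 were at -0.07 each, Tnnc1 at 0.02, Myl3 at 0.11 and Myl2 at 0.17. The limma adjusted p-values ran from 0.505 to 0.951, so none passed the threshold.

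**Figure D2:**
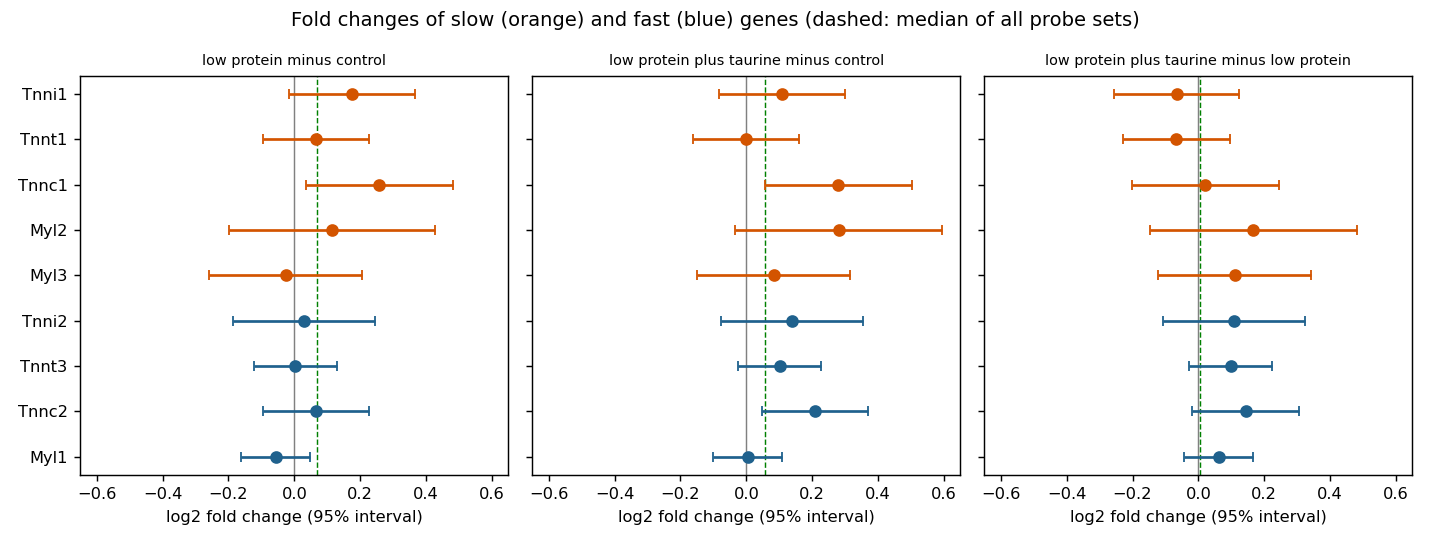
Log2 fold changes of the 5 slow (orange) and 4 fast (blue) genes in the 3 comparisons, with 95% intervals from limma. The dashed line is the median of all 18957 probe sets, and the intervals of Tnnc1 (low protein and added taurine against control) and Tnnc2 (added taurine against control) lie above 0 before adjustment for the number of probe sets.

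The median log2 difference of the 9 genes was 0.07 with low protein, where that of all probe sets was also 0.07. It was 0.11 with added taurine against control, beside 0.06 for all probe sets, and 0.10 between the low protein groups, beside 0.004. Only 3 of the 9 genes lay above the median of all probe sets with low protein, and 7 of 9 in each of the other comparisons. The taurine group had the highest mean in 7 of the 9 genes, and the control group the lowest in 6. This order was not counted over all probe sets. The array medians were 7.66 to 7.67 in controls, 7.73 to 7.75 with low protein and 7.71 to 7.74 with added taurine. Signs depended on the scale with low protein, where 7 genes were above 0 as deposited, 8 after quantile normalisation, 5 after cyclic loess, 3 after median centring and 4 without controls 3 and 4.

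Single arrays moved many of these genes at once. Control 4, with the highest hepatocyte markers, the lowest skeletal muscle markers and the highest erythroid markers (10.45, against 8.89 to 9.73 on the other arrays), was the lowest control in 8 of the 9 genes, 4 slow and 4 fast, with Tnnc1 as the exception. Low protein array 1, with the highest adipocyte markers, was the lowest of its group in 6 genes, 3 slow and 3 fast. Taurine array 4 was the lowest of its group in 5 genes. The part of other cell types in these values was not tested.

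The slow genes were then set against the fast ones within each array, each gene centred on its control mean. The mean of the slow genes minus that of the fast genes was -0.04, -0.03, 0.03 and 0.04 in controls 1 to 4. It was -0.01, 0.10, 0.19 and 0.15 with low protein and -0.02, -0.09, 0.19 and 0.08 with added taurine. With low protein 3 of 4 arrays were above every control, and with added taurine 2 of 4 were, with array 2 below every control.

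On average the slow genes shifted by 0.12 and the fast genes by 0.01 with low protein, a difference of 0.11 on the log2 scale against a within-group SD of 0.09. With added taurine the shifts were 0.15 and 0.11, a difference of 0.04. From low protein to low protein plus taurine the slow genes shifted by 0.03 and the fast by 0.10, a difference of -0.07. These are given as descriptions with no test, because the genes of a set are not replicates. The genes were also chosen with earlier results of these data known. After cyclic loess the differences were 0.02, -0.03 and -0.05, and without controls 3 and 4 those against control were 0.14 and 0.07.

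**Figure D3:**
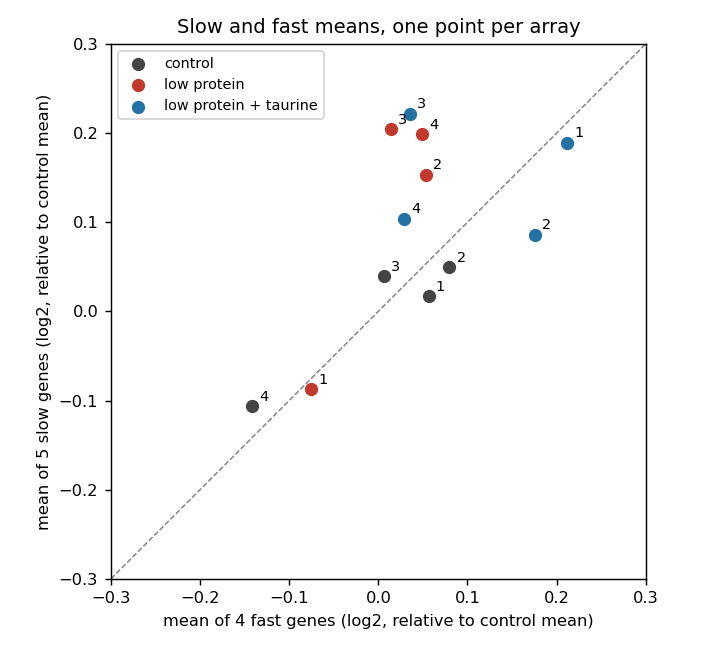
Mean of the 5 slow genes against the mean of the 4 fast genes on each array (log2, relative to the control mean; numbers are replicates; the dashed line marks equal shifts). Low protein arrays 2 to 4 lie above the line, with slow means between 0.15 and 0.20, while control 4 and low protein 1 are low on both axes.

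Each slow gene except Myl2 was also paired with its fast counterpart. This cancels an equal shift of a whole array but not a shift that depends on the level. Every pair value below is given relative to the mean of that pair in the controls. A positive value therefore lies above the control mean and does not mean that the slow gene read higher than the fast one. The troponin C pair, Tnnc1 minus Tnnc2 relative to the control mean, was -0.08, -0.27, 0.18 and 0.17 in controls 1 to 4. It was 0.27, 0.22, 0.13 and 0.15 with low protein, and 0.06, -0.27, 0.07 and 0.42 with added taurine. The low protein arrays all lay above the control mean, and controls 3 and 4 lay within their range. The difference between low protein and control was 0.19 (SD 0.07 with low protein and 0.22 in the controls, n = 4 each), with an exact two-sided permutation p of 0.2. With added taurine the difference was 0.07 (exact permutation p = 0.686). Without controls 3 and 4 the differences were 0.37 and 0.25, and controls 1 and 2 both lay below every low protein array. After cyclic loess the differences were 0.11 and 0.005.

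The troponin I pair, Tnni1 minus Tnni2 relative to the control mean, lay between -0.04 and 0.04 in the controls. It was 0.28, -0.0002, 0.30 and 0.01 with low protein and -0.12, -0.33, 0.08 and 0.25 with added taurine. The low protein arrays split into 2 at the control level and 2 well above it, and the taurine arrays scattered to both sides. The differences from control were 0.15 (exact permutation p = 0.229) and -0.03 (exact permutation p = 0.8).

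The troponin T pair, Tnnt1 minus Tnnt3 relative to the control mean, ran from -0.03 to 0.05 in controls. It ran from -0.08 to 0.15 on the low protein diet, and from -0.20 to 0.17 when taurine was added. Taurine arrays 1, 2 and 4 were below all controls and array 3 above them. The pair's difference between low protein and control was 0.06 (exact permutation p = 0.286), and -0.02 after cyclic loess. Its difference between low protein plus taurine and low protein was -0.16, with an exact permutation p of 0.143, the smallest of the 12 tests. The essential light chain pair, Myl3 minus Myl1, differed by 0.03 between low protein and control (exact permutation p = 0.857) and by 0.08 with added taurine (exact permutation p = 0.429). In all, 4 pairs in 3 comparisons gave 12 exact tests, of which 0 had p under 0.05. The smallest adjusted p was 0.686, and 4 arrays against 4 cannot give less than 0.0286.

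Genes that followed the slow or the fast mean most closely over the 12 arrays were looked up among 11044 named genes, as a description. For the fast mean they were Sypl2 (Pearson r = 0.960), Klhl31 (r = 0.953), Fhl5 (r = 0.943), Trdn (r = 0.941) and Pygm (r = 0.940). Trdn encodes triadin of the calcium release complex and Pygm muscle glycogen phosphorylase. Their r stayed between 0.875 and 0.943 after cyclic loess. Sypl2, for example, was lowest in control 4, at 10.23, and highest in taurine array 1, at 10.97, as was the fast mean.

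For the slow mean they were Ola1 (r = 0.933), Rab18 (r = 0.931), Lrsam1 (r = 0.913), Purb (r = 0.905) and Dcun1d5 (r = 0.901). After cyclic loess these r fell to between 0.561 and 0.831, and 0 of the 5 stayed among the closest 5, against 1 of 5 for the fast mean. Without controls 3 and 4, 3 of the slow 5 and 0 of the fast 5 stayed. All points share the same arrays and the same normalisation, so a shift of a whole array enters every r.

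The other genes of the contractile apparatus were read from 6 lists. Among other slow fibre genes, 10 of 11 measured, 2 rose with low protein, 0 fell and 8 did not pass, and the same counts held with added taurine against control, beside 21.8% and 10.2% of all probe sets called higher. The median log2 difference of the list was 0.11 and 0.23. Atp2a2, the calcium pump of slow and cardiac fibres, was 11.04 to 11.13 in controls, 11.21 to 11.35 on the low protein diet, and 11.22 to 11.32 when taurine was added, and its groups did not overlap with the controls. It rose by 0.18 (SE 0.05, limma adjusted p = 0.0181) and by 0.19 (adjusted p = 0.0274), and did not pass after cyclic loess (adjusted p = 0.134 and 0.142) or without controls 3 and 4 (0.06 and 0.0886). Single arrays ended the call as well, low protein 3 the first (0.0554), and control 3 (0.055) and taurine 1, 3 and 4 (0.066, 0.0544 and 0.068) the other. Atp2a1, from the list of other fast fibre genes, stood at 0.18 (limma adjusted p = 0.113) and 0.26 (adjusted p = 0.0625) and did not pass.

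Tpm3, the slow tropomyosin, read 9.88 to 10.06 in controls, 10.09 to 10.32 on the low protein diet, and 10.21 to 10.38 when taurine was added. It rose by 0.21 (limma adjusted p = 0.0257) and by 0.28 (adjusted p = 0.0204), passed without controls 3 and 4 (0.0472 and 0.0464), and did not pass after cyclic loess (0.368 and 0.152). Without control 2 (0.062), low protein 3 (0.0767) or low protein 4 (0.0516) it did not pass with low protein. Myh7, the slow myosin heavy chain, did not pass, at 0.13 (adjusted p = 0.226) and 0.27 (adjusted p = 0.0509), and without low protein array 1 the latter had an adjusted p of 0.0328. The Myh7 differences without controls 3 and 4 were 0.08 (adjusted p = 0.571) and 0.22 (adjusted p = 0.197).

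Among other fast fibre genes, 8 of 11 measured, 0 passed with low protein in limma, beside 21.8% higher and 11.9% lower among all probe sets. There 0 had an unadjusted p under 0.05, beside 9021 of the 18957 probe sets. With low protein plus taurine against control 1 rose, beside 10.2% of all probe sets. The list's median was 0.07 and 0.28. The gene that rose was Myh2, the heavy chain of fast oxidative fibres, which read 7.28, 7.52, 7.49 and 7.34 in the controls, 7.19, 7.72, 7.53 and 7.95 with low protein and 8.32, 8.27, 7.68 and 7.84 with added taurine. Every taurine array was above every control. The mean of Myh2 over the 12 arrays, 7.68, stood at percentile 48.9 of all probe sets by level. The log2 difference was 0.62 (SE 0.16, 95% interval 0.27 to 0.98, adjusted p = 0.0306), and 0.19 (adjusted p = 0.369) with low protein alone. The adjusted p with added taurine was 0.075 after cyclic loess and 0.101 without controls 3 and 4. It was also over 0.05 without control 1, 3 or 4 (0.0634, 0.0627 and 0.0539) and without taurine 1 or 2 (0.0879 and 0.0577). Between the low protein groups Myh2 differed by 0.43 (adjusted p = 0.419).

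Of the embryonic and cardiac isoforms, 6 of 8 measured, 1 fell and 0 rose with low protein, beside 11.9% lower and 21.8% higher among all probe sets. With added taurine 0 passed in limma, beside 3.6% lower and 10.2% higher. There 0 had an unadjusted p under 0.05, beside 6694 of the 18957 probe sets. Myl7, the atrial regulatory light chain, fell by 0.31 with low protein (SE 0.09, adjusted p = 0.0242) and stood at -0.19 (adjusted p = 0.155) with added taurine. Its adjusted p with low protein was 0.0583 without controls 3 and 4, and over 0.05 without control 1 (0.0556), control 3 (0.0501), low protein 2 (0.062) or low protein 3 (0.0675). Beside it, the mean of the 5 other measured cardiac markers was 6.78 to 6.94 in the controls, 6.64 to 6.77 with low protein and 6.78 to 6.82 with added taurine. With low protein 2 of these 5 fell, Nppb and Nkx2-5, beside 11.9% of all probe sets called lower. Of all 6 cardiac markers only 1 lay above the array's median on any array, and their part in the result was not tested. The embryonic myosin heavy chain Myh3 was at -0.05 (adjusted p = 0.588) and -0.02 (adjusted p = 0.814). Without controls 3 and 4 it was at -0.11 (adjusted p = 0.268) and -0.09 (adjusted p = 0.452). Tnnt2, the cardiac and embryonic troponin T, was at 0.14 (adjusted p = 0.225) and 0.13 (adjusted p = 0.285), and Tnni3, the cardiac troponin I, at 0.01 (adjusted p = 0.937) and 0.08 (adjusted p = 0.441).

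Among thin filament partners and light chain kinases, 8 of 11 measured, 2 rose and 0 fell in each comparison with control, where 21.8% and 10.2% of all probe sets were called higher. Mylk2, the skeletal muscle kinase that phosphorylates the regulatory light chain, read 9.33, 9.27, 9.21 and 9.05 in the controls, 9.79, 9.59, 9.86 and 9.37 with low protein and 9.84, 9.89, 9.54 and 9.66 with added taurine. All 8 arrays of the low protein groups were above all controls. It rose by 0.44 (SE 0.11, limma adjusted p = 0.0132) and by 0.52 (SE 0.11, adjusted p = 0.017). Without controls 3 and 4 the adjusted p was 0.079 and 0.0815, and after cyclic loess 0.0845 and 0.0538. Without taurine array 1 it was 0.0521 with added taurine.

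Ppp1r12b, a targeting subunit of the phosphatase that acts on myosin light chains, rose by 0.29 (limma adjusted p = 0.0147) and by 0.37 (adjusted p = 0.016). It did not pass after cyclic loess (0.186 and 0.0719), and without controls 3 and 4 its adjusted p was 0.0504 and 0.0432. Of the non-muscle and smooth muscle light chain genes, 4 of 5 measured, 1 rose in each comparison with control, beside 21.8% and 10.2% of all probe sets. Myl12b, a non-muscle regulatory light chain, was 9.97 to 10.11 in controls, 10.26 to 10.31 on the low protein diet, and 10.22 to 10.33 when taurine was added. It rose by 0.26 (adjusted p = 0.00552) and by 0.27 (adjusted p = 0.0117), and did not pass after cyclic loess (0.0887 and 0.0997). Beside it, the mean of 7 smooth muscle markers was 9.35 to 9.48 in controls, 9.51 to 9.58 on the low protein diet and 9.46 to 9.60 when taurine was added, and 1 of the 7, Tagln, rose in both comparisons (by 0.32 and 0.33, adjusted p = 0.0143 and 0.0267). Their part in the result was not tested. A second Myl12b probe set stood at 0.12 (adjusted p = 0.228) and 0.17 (adjusted p = 0.124).

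**Figure D4:**
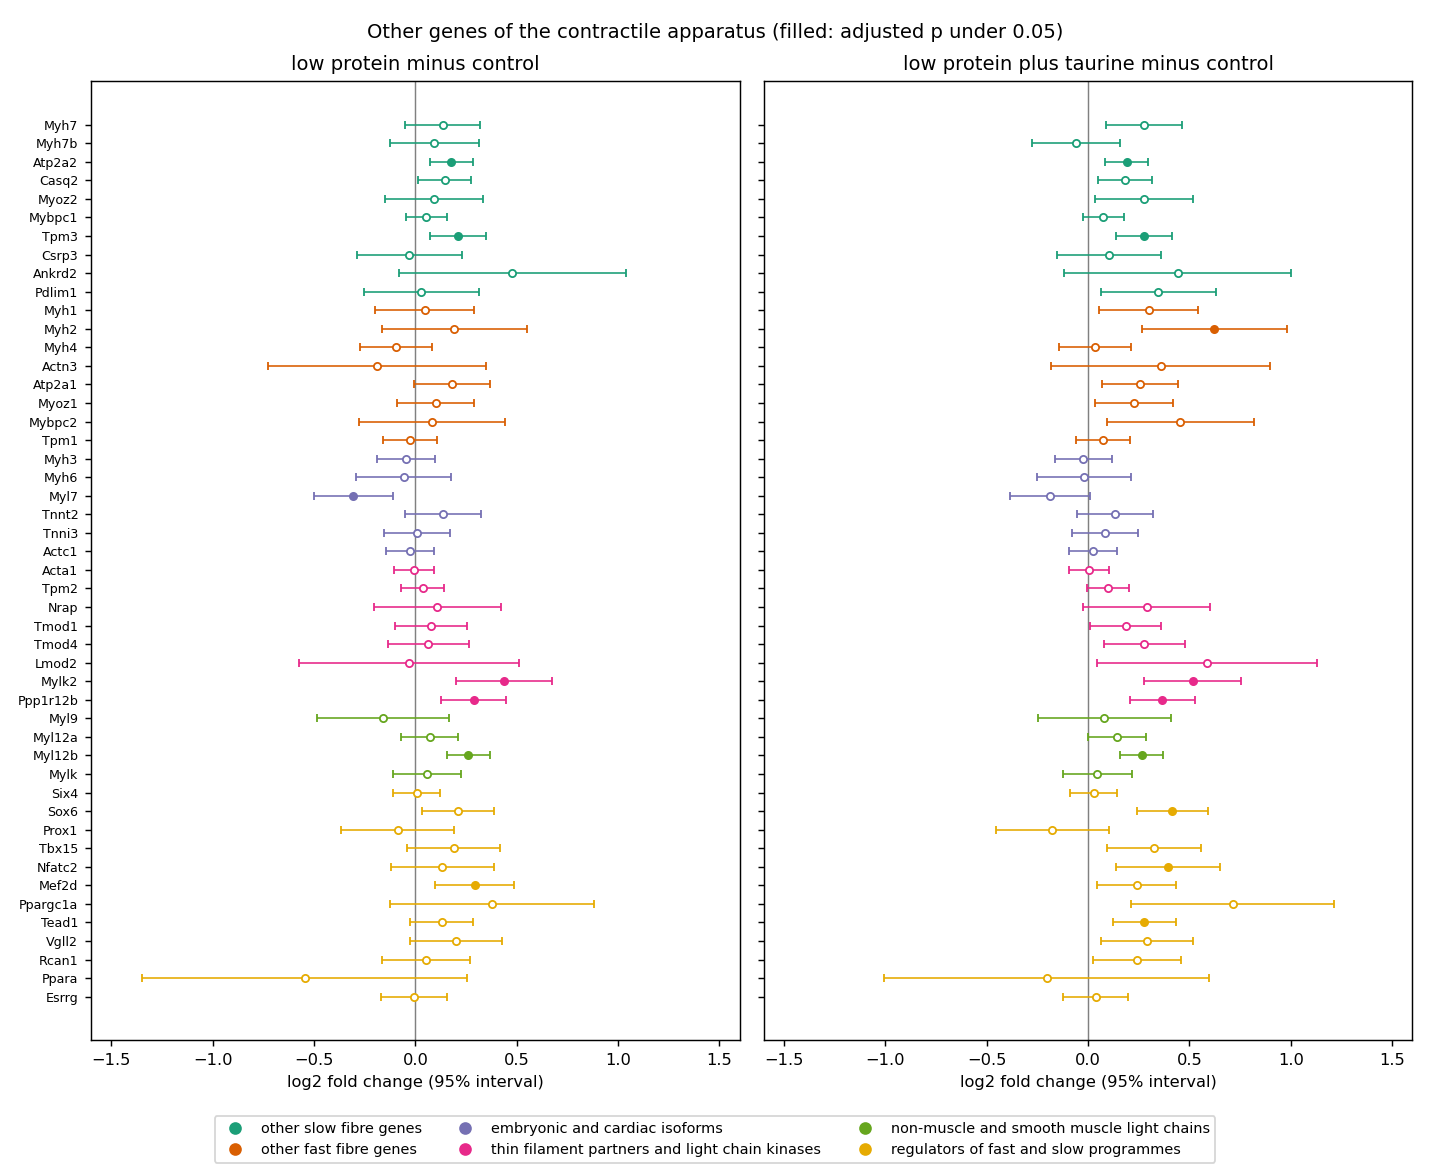
Log2 fold changes with 95% intervals (limma) of the measured genes of 6 lists, for low protein (left) and low protein plus taurine (right) against control. Filled points passed at an adjusted p of 0.05, and on the right Myh2 at 0.62 and Mylk2 at 0.52 are the furthest of the filled points from 0.

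Regulators known to set slow or fast programmes were measured for 12 of 16 genes. With low protein 1 rose and 0 fell, and with low protein plus taurine against control 3 rose and 0 fell. Beside these, 21.8% and 10.2% of all probe sets were called higher, and the list medians were 0.13 and 0.26. Sox6, which represses slow fibre genes in fetal mouse muscle, read 8.07 to 8.27 in controls, 8.11 to 8.52 on the low protein diet, and 8.54 to 8.63 when taurine was added. It rose by 0.42 with low protein plus taurine against control (SE 0.08, limma adjusted p = 0.0145). That rise passed after cyclic loess (adjusted p = 0.0474) and did not without controls 3 and 4 (0.0644). With low protein Sox6 was at 0.21 (adjusted p = 0.061), and its adjusted p there was 0.00968 without low protein array 4. All taurine arrays were above all low protein arrays, with a difference of 0.20 that did not pass (adjusted p = 0.421).

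Tead1, a factor that binds M-CAT motifs, rose by 0.28 (limma adjusted p = 0.028) with added taurine against control. Nfatc2, a target of the phosphatase calcineurin, rose by 0.39 (adjusted p = 0.0451) in that comparison. Between the low protein groups Tead1 differed by 0.15 (adjusted p = 0.479) and Nfatc2 by 0.26 (adjusted p = 0.459). Mef2d, a myocyte enhancer factor, rose by 0.29 (adjusted p = 0.0279) with low protein. None of these 3 passed after cyclic loess (adjusted p = 0.156, 0.138 and 0.229) or without controls 3 and 4 (0.16, 0.247 and 0.167). The Nfatc2 difference without controls 3 and 4 was 0.25. Tead1 did not pass without control 3 or 4 (0.0701 and 0.0553) or without taurine 1 or 2 (0.0737 and 0.0511). Nfatc2 did not pass without any one of 9 arrays (0.056 to 0.122), and Mef2d without control 3 or 4 (0.0564 and 0.0646) or low protein 1 or 3 (0.0616 and 0.0799). Ppargc1a, a coactivator of mitochondrial and slow fibre genes, was at 0.38 (adjusted p = 0.209) and 0.71 (adjusted p = 0.057), and the latter had an adjusted p of 0.0446 without control 2 and 0.0303 without taurine 3. Between low protein plus taurine and low protein, 0 genes of the 6 lists passed in limma, where 2047 of all probe sets had an unadjusted p under 0.05 and the smallest adjusted p was 0.347.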

How the data were processed

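Expression in newborn hind leg muscle was measured on Affymetrix arrays, 1 array per dam. The deposited values are on a log2 scale, 1 per probe set, and were made by the authors with RMA in R 3.2.2, per the submitters' processing notes. The version of RMA and the genome build are not stated in the labels. According to the deposited descriptions the authors kept what was detected on at least 50% of a group's arrays in each group, which gives 18957 of 29214 probe sets.

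One limma fit (version 3.58.1, R 4.3.3) held all 12 arrays, with 3 group means and no block. Two-sided p-values were adjusted by Benjamini-Hochberg over all 18957 probe sets, with a threshold of 0.05. The platform annotation gave 1 symbol to 11721 probe sets and several to 141, and did not list 7095. The genes, lists and tests were chosen with earlier results of these data known. All measured genes of both sets are named, and of each other list up to 4 that passed with the smallest p, together with Myh7, Myh2, Myh3, Sox6, Ppargc1a and Mylk2. One further gene of that rule is not reported here. Atp2a1, Tnnt2, Tnni3 and the second Myl12b probe set were named after their values were seen. As Mylpf was not analysed, 4 isoform pairs and 12 exact permutation tests were made where 5 pairs had been planned. The methods' t-test, named in the deposited descriptions, and the likeness alternatives were added after seeing the data. Same-numbered arrays of different groups deviated together (r over 0.1) in 3 of 12 pairs, with r from -0.205 to 0.20, and were not treated as pairs. The fit was tested on simulated data. Start regions came from RefSeq (GRCr8). Scan dates and array batches are unknown here and could not be tested as blocks.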

Additional observations from a re-analysis of the deposited data

Results flagged for a closer look

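In 3 of 48 groups of 4 arrays that were checked, 1 array stood far from the other arrays of its group, and chance flags about 1 in 20 groups. Tnni1 was at 11.68 in low protein array 3, with the other low protein arrays between 11.43 and 11.47. The troponin T pair, Tnnt1 minus Tnnt3 relative to control, was at 0.166 in taurine array 3, with the other taurine arrays between -0.197 and -0.182. The essential light chain pair, Myl3 minus Myl1 relative to control, was at -0.274 in low protein array 1, with the other arrays of that group between 0.09 and 0.156.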

How the results depend on the processing

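The number of slow and fast genes that passed was 0 in every comparison and stayed 0 in 64 of the 69 values from the alternatives. It was 1 with low protein when only the 2 groups compared were fitted (Tnnc1) and with median centring (Myl1), 1 with added taurine under the trend and robust options (Tnnc2), and between 0 and 1 in both comparisons with control when single arrays were left out (Tnnc1, without taurine 2). With the replicate block 0 passed in each comparison, with 5456 (low protein), 1974 (added taurine) and 0 probe sets called. Signs also turned, each for a difference that did not pass. With low protein they turned with array weights (Tnnt3 -0.016), quantile normalisation (Myl1 0.016), median centring (Tnnt1 -0.016, Tnni2 -0.052, Tnnt3 -0.078, Tnnc2 -0.016), cyclic loess (Tnnt1 -0.00034, Myl2 -0.031) and without controls 3 and 4 (Tnni2 -0.085, Tnnt3 -0.054, Tnnc2 -0.011). With added taurine against control they turned with array weights (Myl1 -0.021), median centring (Myl1 -0.057) and without controls 3 and 4 (Tnni1 -0.017, Myl1 -0.019). Leaving out single arrays gave, with low protein, Tnni2 from -0.039 to 0.089, Tnnt3 from -0.042 to 0.028 and Myl3 from -0.079 to 0.086, with added taurine against control Tnnt1 from -0.054 to 0.038, Myl1 from -0.029 to 0.023 and Myh3 from -0.068 to 0.0101, and between the low protein groups Myl3 from -0.0026 to 0.19, Tnnc1 from -0.051 to 0.12, Myh3 from -0.014 to 0.055 and Mylk2 from -0.017 to 0.15. The causes were not tested. All 192 pair values and 48 shift values kept their call or stayed within the within-group SD. No pair passed and the shifts had no test, so this says little, and some signs turned. With low protein the troponin T pair ran from -0.020 to 0.11 and the essential light chain pair from -0.076 to 0.13. With added taurine the troponin I pair ran from -0.12 to 0.071, the troponin C pair from -0.047 to 0.25 and the shift from -0.029 to 0.080. Between the low protein groups the essential light chain pair ran from -0.052 to 0.13. For low protein against control, 6390 probe sets (64.6% higher) became 2982 (51.1%) with quantile normalisation, 2564 (36.9%) with cyclic loess, 5122 (29.4%) with median centring, 3863 (86.3%) above the median level, 3838 (80.8%) with 1 symbol and 3705 (55.1%) without controls 3 and 4. With added taurine, 2616 became 1353 with the 2 groups alone, 4276 with array weights, 1201 with quantile normalisation, 1137 with cyclic loess, 1542 with 1 symbol and 907 without controls 3 and 4. Without single arrays the numbers ran from 3929 to 6621 and from 620 to 2742. Between the low protein groups it was 1 with the 2 groups alone and 2 without controls 3 and 4. The mean over several probe sets of a gene was not run, since each measured gene had 1.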
